A study of Homo sapiens with 6 samples.

Results

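Ultraconserved elements are stretches of the genome that are identical between human and rodent genomes, and many of them are transcribed into non-coding RNA. Transcripts of 10 such elements that have been studied in cancer (uc.38, uc.63, uc.73, uc.84, uc.160, UC.283, UC.338, UC.339, UC.416 and UC.475) were read on arrays from inflammatory-stimulated breast cancer cells. The members were found by their names among 481 ultraconserved elements on the array, by a rule that uses no measured value. Each member has a reading for the + strand and a reading for the - strand, so the set holds 20 strand readings, each from 1 spot per array, out of 60596 probes used. The files do not state which RNA each sign stands for, and no direction of transcription is drawn from it here.

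The cells were MDA-MB-231, an established human breast cancer line that lacks hormone receptors and is much used as a model of mesenchymal, invasive disease. All 6 arrays came from this line after 24 h of treatment. One array each was made after PBS (the control), LPS (bacterial lipopolysaccharide), IL1b and TNFa (inflammatory cytokines), IL6 (a cytokine that signals through STAT3) and TGFb (a growth factor that signals through SMAD proteins). With no replicate in any group no test was possible, and differences are reported by size alone, unchecked against replicates. Of 10 marker genes listed for the line, 0 had a named probe, so the label of the cells was not checked against the data.

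Transcribed ultraconserved regions are known as long non-coding RNAs whose levels are altered in leukaemias and carcinomas, and some of them lie inside protein-coding genes. Several work by binding microRNAs or proteins, and others are silenced in tumours by methylation of nearby CpG islands. RefSeq (assembly GRCh38.p14) lists 1 of the 10 members under its own name, since UC.338 is given there as the lncRNA PCBP2-OT1, whose span lies within PCBP2, a gene for an RNA-binding protein. The array names no genome build, and its probe sequences were not used here, so neither positions nor sequences are printed. The array spells all names with uc in lower case, and 5 of them are printed here with capital letters, namely UC.283, UC.338, UC.339, UC.416 and UC.475.

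The arrays differed in their background, and this bears on every value below. The share of all probes well above background, as flagged by the scanner software, ran from 33.2% after PBS to 68.4% after IL6. The 99th percentile of 600 negative control spots was a signal of 33.5 after PBS, between 51.5 and 68.4 after LPS, IL1b and TNFa, 172 after IL6 and 141 after TGFb. The IL6 and TGFb arrays also had 12.8% and 11.2% of these control spots flagged as well above background, beside at most 2.33% on the other arrays. Whether these differences come from the treatment or from the arrays cannot be told apart with 1 array each. Levels are log2 intensities, quantile normalized over the 6 arrays, and signals are the scanner's processed values before normalization.

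Detection of the members was partial and rested largely on 1 strand. The number of readings well above background was 4 of 20 after PBS, 7 after LPS, 8 after IL1b, 6 after TNFa, 11 after IL6 and 10 after TGFb. Over the other 941 ultraconserved readings the shares were 13.1%, 15.8%, 21.5%, 17.2%, 43.7% and 32.6% in the same order, so the members' counts were highest on the arrays where the other readings were also detected most often. Shares over all probes were 33.2%, 40.7%, 49.0%, 43.5%, 68.4% and 56.3%. Of the 20 readings, 4 were well above background on all 6 arrays (uc.38-, uc.84-, UC.338+ and UC.339+), 7 on some of them and 9 on none. Of all 60596 probes, 19077 were well above background on all 6 arrays.

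A stricter reading of detection asks that a signal exceed the 99th percentile of negative control spots on its own array. By that rule 5 readings passed after PBS, 4 after LPS, 6 after IL1b, 5 after TNFa, 5 after IL6 and 7 after TGFb. The scanner's flag gave 11 readings after IL6 and 10 after TGFb, beside 4 after PBS. By the control spots it was 5 after IL6 and 7 after TGFb, beside 5 after PBS. The share of all probes passing was not taken for this rule, so these counts are no result about the members. Among all flagged probes, 99.995% exceeded the percentile after PBS, 94.7% after LPS, 90.4% after IL1b and 93.6% after TNFa. The share was 48.0% after IL6 and 62.4% after TGFb. Of the 46 values flagged as well above background, 15 did not exceed that percentile and 5 did not exceed the 95th. Only uc.38- and uc.84- exceeded the 99th percentile on all 6 arrays.

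**Figure D1:**
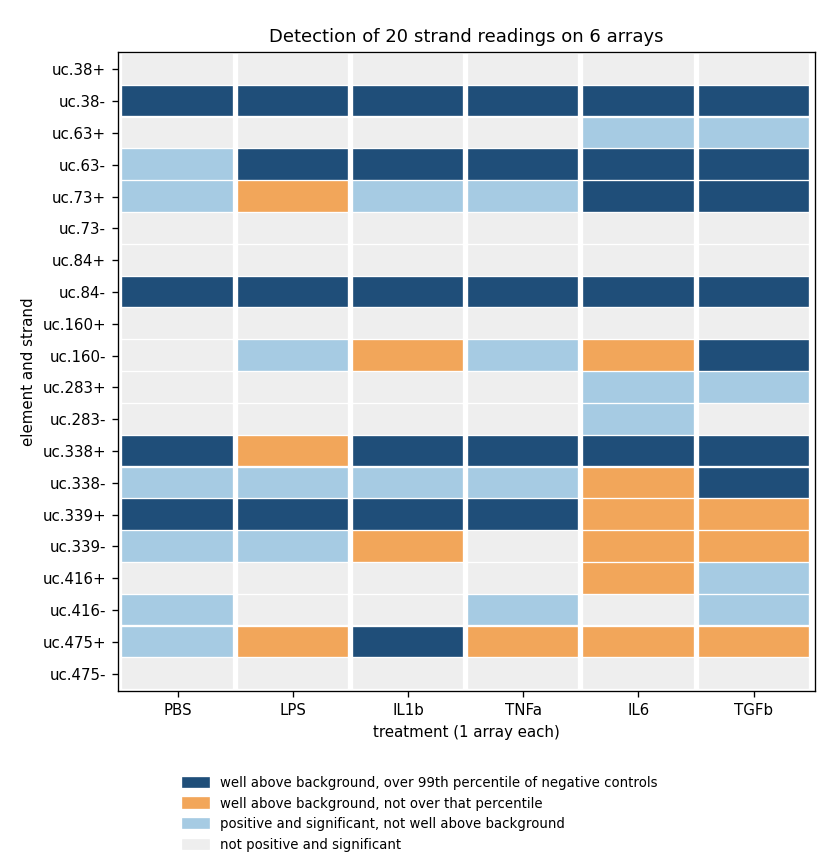
Detection of each strand reading (rows) on each array (columns, 1 per treatment). Dark blue marks readings well above background and over the 99th percentile of negative control spots, orange those flagged but not over that percentile, light blue those positive and significant only, and grey the rest. Rows of uc.38- and uc.84- are dark blue throughout, and 6 of the 15 orange cells lie in the IL6 column.

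By strand, 4 elements were detected on the - strand alone (uc.38, uc.63, uc.84 and uc.160), 3 on the + strand alone (uc.73, UC.416 and UC.475), 2 on both (UC.338 and UC.339) and 1 on neither (UC.283). Among the other 470 elements with both readings, 26.0% were detected on the + strand alone, 26.0% on the - strand alone, 23.8% on both and 24.3% on neither. By the 99th percentile of negative control spots, UC.339 passed on the + strand alone and UC.416 on neither. That left 1 member on both strands and 2 on neither, and no shares for the other elements were taken under this rule. The 9 readings never well above background lay between 2.93 and 4.80 on the normalized scale, with 38 of their values at the lowest signal of the array. None of their values exceeded the 95th percentile of negative control spots, and 8 carried the weaker flag of being positive and significant.

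Against PBS, the count takes readings at least 2-fold apart whose brighter value exceeded the median of that array. With LPS, 2 of 20 readings were higher and 1 was lower, beside 8.52% and 6.02% of all probes. IL1b gave the same counts of 2 and 1, beside 9.90% and 7.18%, and TNFa again 2 and 1, beside 10.1% and 7.67%. With IL6, 3 were higher and 1 lower, beside 12.1% and 12.4%, and after TGFb 3 and 1, beside 12.7% and 12.6%. Over the other 941 ultraconserved readings, 5.53%, 4.25%, 4.78%, 9.03% and 9.78% were higher with LPS, IL1b, TNFa, IL6 and TGFb. In the same order, 5.74%, 6.48%, 6.80%, 9.78% and 9.78% were lower. The members' shares were near those over all probes, and the counts are no result about the set.

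The 5 comparisons share the single PBS array, and the higher readings were mostly the same ones in each. They were uc.63- and uc.160- with every stimulus, joined by uc.73+ after IL6 and UC.338- after TGFb. The lower reading was UC.338+ after LPS, IL1b and TNFa and UC.339+ after IL6 and TGFb. The median difference over the 20 readings was -0.09 after LPS, -0.20 after IL1b, -0.20 after TNFa, -0.16 after IL6 and -0.20 after TGFb. Over all probes it was -0.09, -0.20, -0.08, -0.01 and -0.14 in the same order. Over the other 941 ultraconserved readings it was -0.09, -0.20, -0.20, -0.17 and -0.20, close to the members. Many of the 20 readings were at the lowest signal of their array, and such values have no order.

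The split into higher and lower readings moved with the scaling, and so did the shares over all probes. Under cyclic loess normalization, 2 were higher and 2 lower after LPS, beside 8.45% and 5.38% of all probes. The split was 1 and 2 after TNFa, beside 10.1% and 6.80%, and 2 and 2 after IL6, beside 12.4% and 11.1%. With the 75th percentile of all probes as the scale, it was 2 and 2 after IL1b, beside 9.38% and 7.86%, and 1 and 2 after TNFa, beside 9.33% and 8.16%. On that scale it was 3 and 2 after IL6, beside 10.99% and 14.7%, and 3 and 2 after TGFb, beside 11.9% and 15.1%.

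The shares over all probes moved most when the arrays were scaled to the same percentile of the 19077 probes detected on every array. The members then split into 1 higher and 1 lower after LPS, beside 6.22% and 9.20% of all probes. IL1b gave 2 and 2, beside 8.33% and 9.56%, and TNFa gave 1 and 3, beside 8.78% and 8.90%. IL6 gave 3 and 2, beside 18.3% and 9.15%, and TGFb gave 4 and 2, beside 19.99% and 9.13%.

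Under the quantile scale, each of the higher calls was made against a PBS value that was not well above background. Where both arrays had to be well above background, 0 readings were higher and 1 was lower with each stimulus. The shares over all probes were then between 2.21% and 3.23% higher and between 1.68% and 6.73% lower. Where each array was set against the median of the remaining 5 in place of PBS, 0 readings were higher after LPS, IL1b and TNFa, and 1, 2 and 2 were lower. All probes then gave 3.16%, 2.96% and 3.81% higher and 2.02%, 1.89% and 2.14% lower. On that footing 4 were higher and 2 lower after IL6, beside 11.4% and 7.01%, and 3 and 1 after TGFb, beside 11.5% and 9.12%. A rise shared by all stimuli cannot show against this median, which is then a treated level.

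**Figure D2:**
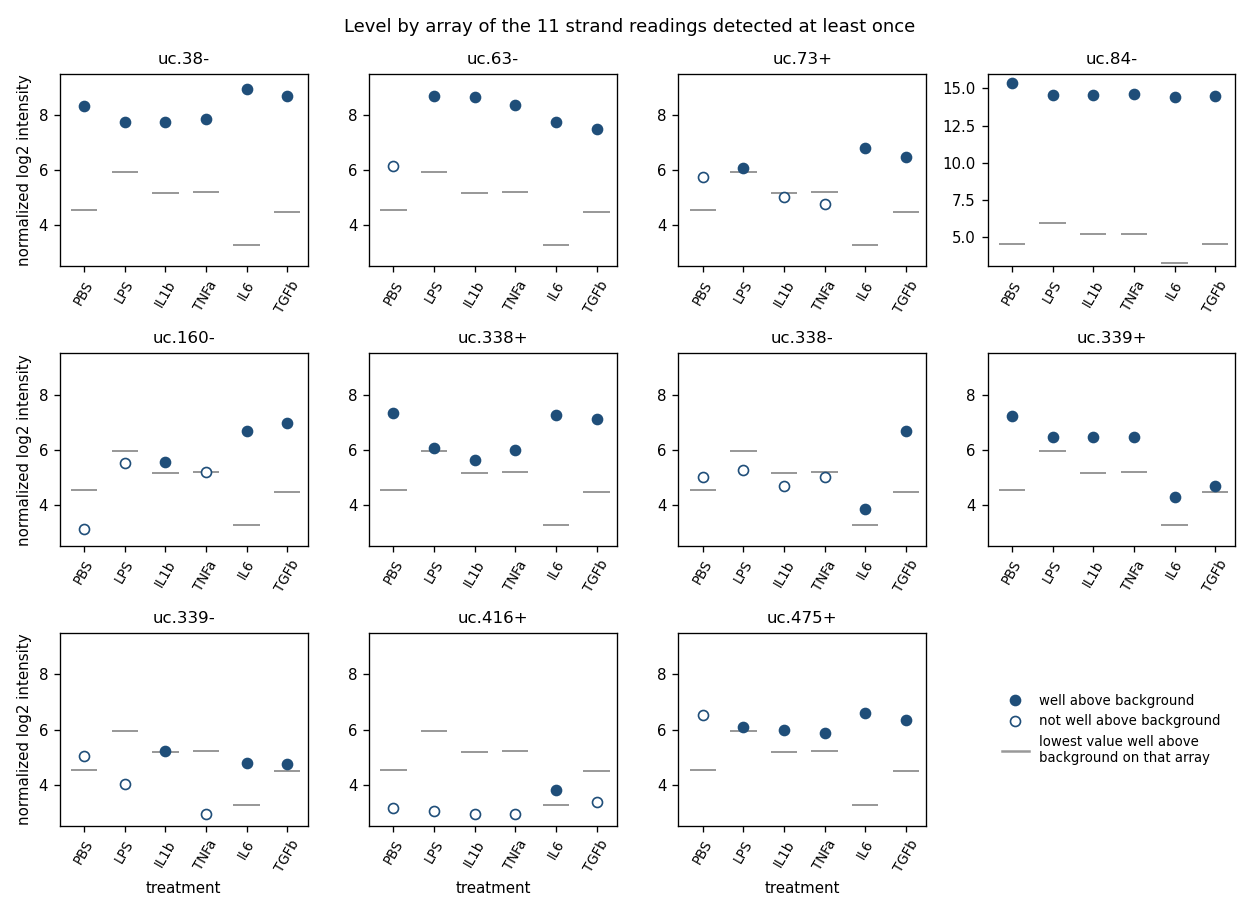
Normalized log2 intensity (vertical axis) on each array (horizontal axis) for the 11 strand readings well above background at least once. Filled points are well above background, open points are not, and the grey bar is the lowest value well above background on that array. The vertical axis of uc.84- differs from the other panels. The uc.63- point is open and lowest after PBS, at 6.15, while UC.339+ is lowest after IL6, at 4.27.

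Among the elements studied in breast cancer is uc.63, which lies in XPO1, the gene of a nuclear export receptor, and has also been studied in prostate cancer. The signal of uc.63- was 30.0 after PBS, 333 after LPS, 637 after IL1b, 293 after TNFa, 337 after IL6 and 268 after TGFb. The normalized levels were 6.15, 8.69, 8.63, 8.34, 7.74 and 7.50 in the same order. The PBS array was the lowest of the 6 and the only one on which uc.63- was not well above background. Relative to the 99th percentile of negative control spots of the same array, its log2 signal stood at -0.16 after PBS. On the treated arrays it stood between 0.93 after TGFb and 3.22 after IL1b.

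Where a reading was not well above background on 1 array, its fold is given as a minimum, taken against the higher of its own value and the lowest value well above background on that array. This is not a strict bound, since some values above that lowest value were themselves not flagged. On this footing uc.63- was at least 5.81-fold higher after LPS, 5.60-fold after IL1b, 4.58-fold after TNFa, 3.01-fold after IL6 and 2.54-fold after TGFb. The spread between arrays was taken as a robust SD of log2 differences, beside differences of 1.35 to 2.54 for uc.63-. Over probes above the median of either array, a set that holds uc.63-, it was 0.86 between PBS and LPS. It was 0.96 for IL1b, 0.95 for TNFa, 1.21 for IL6 and 1.23 for TGFb. Over probes well above background on both, which leaves uc.63- out, it ran from 0.68 between PBS and LPS to 0.92 between PBS and IL6.

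The uc.63- result rests on the PBS array, as every treated array stood above it. Its spot there, and the one on the LPS array, carried a background outlier flag. Taking the median of the remaining 5 arrays as control for each array, uc.63- stood at 0.95 after LPS, 0.89 after IL1b, 0.60 after TNFa, -0.60 after IL6 and -0.85 after TGFb, so no difference reached 2-fold and the sign turned after IL6 and TGFb. With PBS lowest, that median is always a treated level, so this control cannot show a rise shared by all stimuli. The + strand reading, uc.63+, was not well above background on any array, with a highest signal of 32.7 on the TGFb array.

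The other element studied in breast cancer was uc.38. The signal of uc.38- was 134 after PBS, 165 after LPS, 323 after IL1b, 202 after TNFa, 705 after IL6 and 549 after TGFb. After normalization the levels were 8.31, 7.76, 7.73, 7.84, 8.94 and 8.67. LPS, IL1b and TNFa lay together and lowest, PBS in between, and IL6 and TGFb highest.

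No difference of uc.38- from PBS reached 2-fold. The largest were 1.55-fold higher after IL6 and, on the log2 scale, -0.58 after IL1b. The range over the 6 arrays was 1.21 on the log2 scale. Against the 99th percentile of negative control spots of the same array, uc.38- stood higher by 2.00 after PBS, 1.68 after LPS, 2.24 after IL1b, 1.97 after TNFa, 2.03 after IL6 and 1.96 after TGFb. By that measure PBS, IL6 and TGFb were close to each other, unlike in the normalized levels. The part of the raised background of the IL6 and TGFb arrays in the normalized levels was not tested. The + strand reading, uc.38+, was at or near the lowest signal on all 6 arrays.

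**Figure D3:**
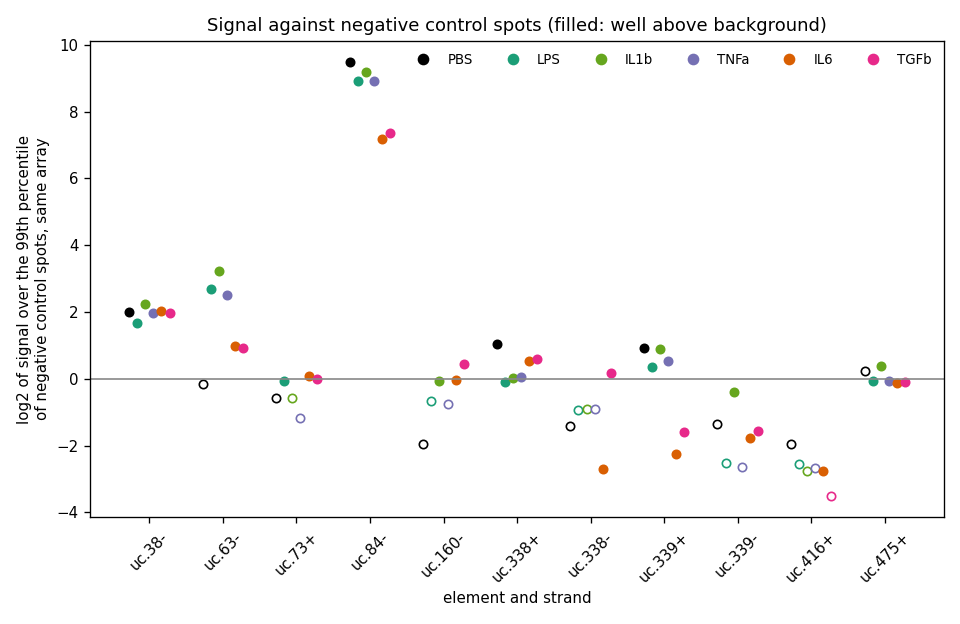
Log2 of each reading's signal over the 99th percentile of negative control spots on the same array (vertical axis), for the 11 readings detected at least once (horizontal axis), coloured by treatment. Filled points are well above background, and points above the line exceed that percentile. The uc.84- points lie between 7.17 and 9.48, while all UC.475+ points lie between -0.12 and 0.38.

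The signal of uc.84- stood far above the control spots on every array. It measured 23861 after PBS, 24861 after LPS, 40246 after IL1b, 24767 after TNFa, 24857 after IL6 and 22970 after TGFb, and none of these spots was saturated. Apart from IL1b, whose spot carried a background outlier flag, the signals before normalization were close to each other. The uc.84+ reading was not well above background on any array.

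Normalized levels of uc.84- were 15.34 after PBS, 14.59 after LPS, 14.53 after IL1b, 14.61 after TNFa, 14.39 after IL6 and 14.48 after TGFb. PBS was the highest and the 5 treated arrays lay between 14.39 and 14.61. The difference from PBS was -0.75 after LPS, -0.81 after IL1b, -0.72 after TNFa, -0.94 after IL6 and -0.85 after TGFb, under 2-fold throughout. Using the 75th percentile of all probes as the scale put it past 2-fold after IL1b (-1.07), IL6 (-1.85) and TGFb (-1.86), and scaling to that of probes detected on every array did so after IL1b (-1.16), TNFa (-1.03), IL6 (-1.37) and TGFb (-1.30). The unnormalized log2 differences were 0.06 after LPS, 0.75 after IL1b, 0.05 after TNFa, 0.06 after IL6 and -0.05 after TGFb.

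Among elements known for silencing by CpG island methylation in cancer cells are uc.160 and UC.283. The signal of uc.160- was 8.70 after PBS, which is the lowest signal on that array, then 32.2 after LPS, 65.7 after IL1b, 30.7 after TNFa, 169 after IL6 and 194 after TGFb. Normalized levels were 3.13, 5.52, 5.55, 5.18, 6.69 and 6.97. The reading was well above background after IL1b, IL6 and TGFb and not after PBS, LPS or TNFa, so the counted differences after LPS and TNFa are between arrays that both lacked that flag. With TNFa the difference was under 2-fold in the 3 other scalings (0.78, 0.73 and 0.83), and after LPS in 1 of them (0.88).

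Measured against the lowest PBS value well above background, uc.160- was at least 2.01-fold higher after IL1b, 4.44-fold after IL6 and 5.42-fold after TGFb. Its raw log2 signal exceeded the 99th percentile of negative control spots only after TGFb, by 0.46, and lay at -0.06 after IL1b and -0.02 after IL6. With the median of the remaining 5 arrays as control, the difference was -0.029 after LPS, 0.029 after IL1b and -0.36 after TNFa, so these calls were lost, and 1.17 after IL6 and 1.46 after TGFb. PBS was again the lowest array, so this control cannot show a rise shared by all stimuli. On the IL6 and TGFb arrays uc.160- stood higher than on LPS, IL1b and TNFa by at least 1.14. The part of the raised background of those arrays in this was not tested. The + strand reading, uc.160+, was at or near the lowest signal on all 6 arrays. For UC.283, neither strand was well above background on any array, and the highest signal was 27.6, for UC.283+ after TGFb.

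Elements studied for their part in tumour growth include UC.338, known from hepatocellular carcinoma, and UC.339, known from lung cancer, where it binds microRNAs. The signal of UC.338+ was 69.1 after PBS, 48.1 after LPS, 70.2 after IL1b, 53.6 after TNFa, 251 after IL6 and 213 after TGFb. Normalized levels were 7.34, 6.05, 5.63, 5.99, 7.27 and 7.13. PBS, IL6 and TGFb were high and near each other, and LPS, IL1b and TNFa were low, with a gap of 1.08 between the sets.

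All 6 values of UC.338+ were flagged as well above background. It was 2.45-fold lower than PBS after LPS, 3.27-fold after IL1b and 2.55-fold after TNFa, but 1.05-fold lower after IL6 and 1.16-fold lower after TGFb. Among probes well above background on both arrays, 12.1% differed at least 2-fold between PBS and LPS, 19.0% between PBS and IL1b and 18.0% between PBS and TNFa, and of the 4 members measured on both, UC.338+ was the 1 that did so in each. With IL6 and TGFb the sign turned to 0.43 and 0.39 under scaling to the 75th percentile of probes detected on every array.

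The low values of UC.338+ lay close to the negative control spots. Relative to their 99th percentile it stood at 1.05 after PBS, -0.10 after LPS, 0.04 after IL1b, 0.06 after TNFa, 0.54 after IL6 and 0.60 after TGFb, and its PBS spot carried a background outlier flag. Taking the median of the remaining arrays as control, UC.338+ was at -1.08 after LPS, lower still after IL1b and at -1.14 after TNFa, and at 1.22 after IL6 and 1.08 after TGFb. For LPS, IL1b and TNFa that median was the TGFb level itself, 7.13, from an array with raised background. It is therefore no separate check of the PBS value. The unnormalized log2 differences of UC.338+ from PBS were -0.52 after LPS, 0.02 after IL1b and -0.37 after TNFa. They were 1.86 after IL6 and 1.63 after TGFb.

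The opposite strand of this element, UC.338-, had signals of 12.7 after PBS, 26.7 after LPS, 36.8 after IL1b, 27.5 after TNFa, 26.3 after IL6 and 159 after TGFb. TGFb alone stood out, at a normalized level of 6.67 beside 3.87 to 5.28 on the other arrays, and it was at least 3.16-fold higher than PBS. The TGFb spot carried a background outlier flag and exceeded the 99th percentile of control spots by 0.17. With IL6 the reading was flagged as well above background at a signal below the 95th percentile of that array's control spots, which was 46.5, while its higher PBS level of 5.01 was not flagged. With TGFb, UC.338+ differed from PBS by -0.21 and UC.338- by 1.66.

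The reading UC.339+ had signals of 63.5 after PBS, 65.5 after LPS, 128 after IL1b, 74.5 after TNFa, 35.9 after IL6 and 46.4 after TGFb. The normalized levels were 7.22, 6.48, 6.48, 6.46, 4.27 and 4.69. PBS was highest, the LPS, IL1b and TNFa values lay within 0.02 of each other, and IL6 and TGFb were lowest, with a gap of 1.77 to the nearest of the others.

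Against PBS, UC.339+ was 7.71-fold lower after IL6 and 5.79-fold lower after TGFb, and 1.68-fold, 1.67-fold and 1.70-fold lower after LPS, IL1b and TNFa. Among probes well above background on both arrays, 30.1% differed at least 2-fold between PBS and IL6 and 28.9% between PBS and TGFb. The signals on these arrays were below the 95th percentile of negative control spots (46.5 after IL6 and 60.9 after TGFb) although flagged as well above background. The differences after IL6 and TGFb were -3.01 and -2.60 with cyclic loess, and -2.73 and -2.25 with the 75th percentile of all probes. They were -2.25 and -1.69 with the 75th percentile of probes detected on every array. The unnormalized log2 differences were -0.83 after IL6 and -0.45 after TGFb. Both arrays were brighter than PBS, with a 75th percentile of signal of 312 and 290 beside 83.3. Scaling could therefore hardly turn the direction, and the shared sign is no separate check.

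On the opposite strand, UC.339- was well above background after IL1b, IL6 and TGFb, at signals of 52.3, 50.8 and 47.9. It exceeded the 99th percentile of negative control spots on 0 arrays. Its normalized levels of 5.05 after PBS, 4.01 after LPS, 5.22 after IL1b, 2.93 after TNFa, 4.80 after IL6 and 4.74 after TGFb showed no difference of 2-fold from PBS on an array where it was flagged.

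Another element, uc.73, is known from colorectal cancer and leukaemia. The signal of uc.73+ was 22.4 after PBS, 48.7 after LPS, 46.0 after IL1b, 22.9 after TNFa, 181 after IL6 and 142 after TGFb. The levels after normalization were 5.76, 6.07, 5.03, 4.77, 6.78 and 6.49, the IL6 and TGFb arrays being highest. It was flagged as well above background after LPS, IL6 and TGFb alone.

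With IL6, uc.73+ was at least 2.03-fold higher than PBS, and after TGFb at least 1.66-fold. The call after IL6 was lost under cyclic loess (0.78) and when PBS, IL6 and TGFb were normalized alone (0.99), and after TGFb a call was gained under the 75th percentile of probes detected on every array (1.42). Both values barely passed the 99th percentile of control spots, by 0.07 after IL6 and 0.01 after TGFb. The - strand reading, uc.73-, was at or near the lowest signal on all 6 arrays.

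The transcript of UC.475, which overlaps OGT (the enzyme that adds O-GlcNAc to proteins), is known to be induced by low oxygen. The signal of UC.475+ was 39.4 after PBS, 49.1 after LPS, 89.2 after IL1b, 49.3 after TNFa, 158 after IL6 and 131 after TGFb. Normalized levels were 6.54, 6.08, 5.98, 5.88, 6.59 and 6.36, a range of 0.71. PBS was not flagged as well above background although it lay above 4 of the 5 treated arrays, so no fold is given against those 4, and after IL6 the reading was at least 1.03-fold higher. The sign depended on the scaling for both, at -0.11 after IL6 under cyclic loess and 0.49 after TGFb under the 75th percentile of probes detected on every array. Its spots on the IL6 and TGFb arrays carried a background outlier flag. The signal followed the control spots, from -0.12 to 0.38 relative to their 99th percentile, and the UC.475- reading was at or near the lowest signal on all 6 arrays.

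The last element, UC.416, is known from gastric cancer. Its + strand reading was well above background after IL6 alone, at a signal of 25.2 that lay below the 95th percentile of negative control spots on that array. The level of 3.82 after IL6 was below the lowest PBS value well above background, so no fold is given. The UC.416- reading was not well above background on any array, with signals of 3.82 to 24.8.

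**Figure D4:**
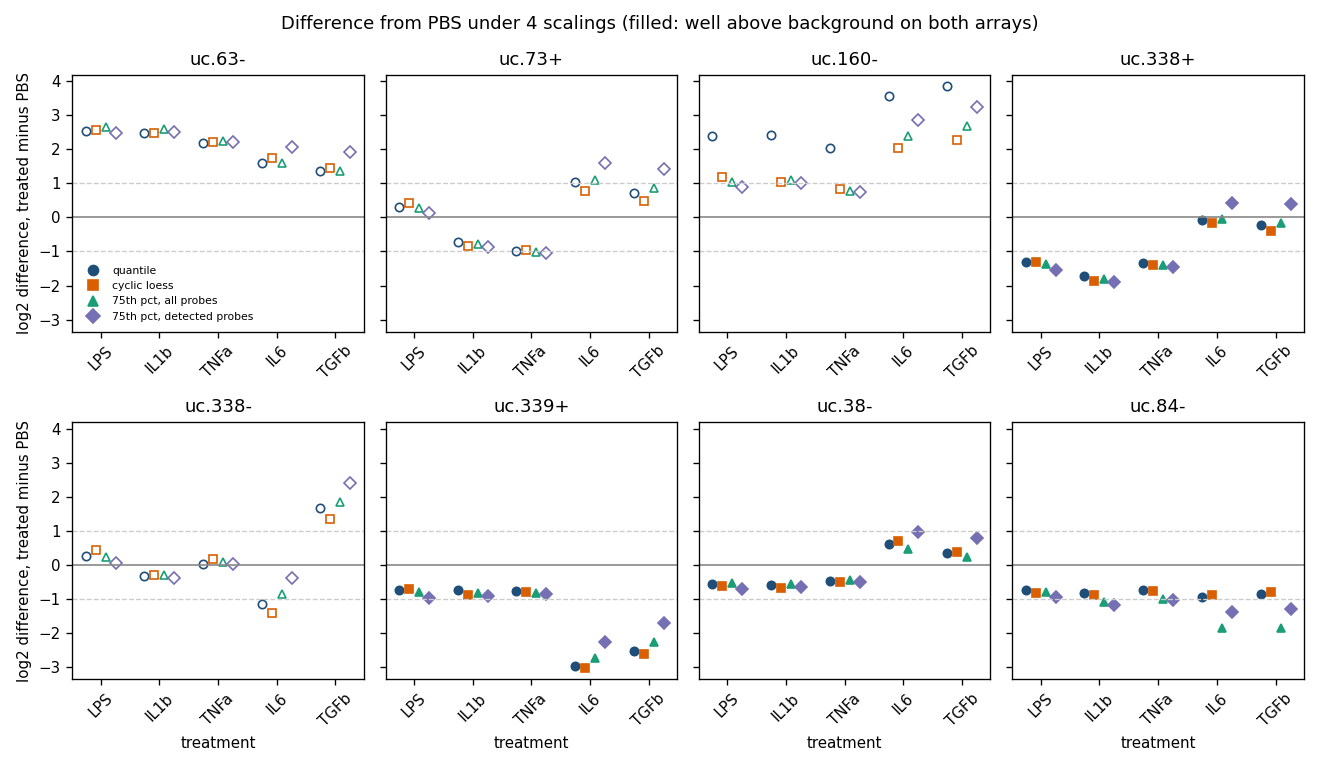
Log2 difference from PBS (vertical axis) with each stimulus (horizontal axis) under 4 scalings, marked by shape and colour, for 8 strand readings. Filled points are well above background on both arrays, and dashed lines mark 2-fold. Points of uc.63- lie above 1 under all 4 scalings and those of UC.338+ lie below -1 after LPS, IL1b and TNFa, while uc.84- crosses -1 according to the scaling.

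The IL6 and TGFb arrays were set against the LPS, IL1b and TNFa arrays, without PBS, since these sets of arrays differed in background. Of the 4 members measured on every array, uc.38- and UC.338+ stood above all 3 arrays of the second set on both of the first, and uc.84- and UC.339+ stood below them. Among the 19077 probes measured on every array, the share separated upwards was 25.3% and the share separated downwards 42.0%. Separation of these 2 sets of arrays was therefore the common case on this platform. The gap was 0.83 for uc.38-, 1.08 for UC.338+, 0.05 for uc.84- and 1.77 for UC.339+.

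Of the 6 readings well above background on both LPS and IL1b, 0 differed 2-fold, beside 1.63% of all probes measured on both, so the count is no result about the members. Their median absolute difference was 0.06, beside 0.17 over those probes. Between IL6 and TGFb, 1 of 10 such readings differed 2-fold (UC.338-), beside 11.3% of all probes measured on both.

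The named probes whose patterns over the 6 arrays were most like those of the 4 fully measured readings were found among 250 other named probes well above background on all arrays, by the root mean square difference after centring each on its mean. For uc.38- these were nc-HOXB9-204 (0.06) and nc-HOXA13-98 (0.08), and for uc.84- nc-HOXB4-173 (0.08) and nc-HOXD13-2 (0.10), non-coding transcripts of the HOX clusters. For UC.338+ they were intron 2 of HOXA11 (0.17) and nc-HOXA10-82 (0.20), and for UC.339+ the ultraconserved readings uc.18+ (0.16) and uc.155- (0.20). The median over the 250 probes was 0.55 for uc.38-, 0.56 for uc.84-, 0.71 for UC.338+ and 1.17 for UC.339+. The probes named were picked as the closest of the 250, so they lie below this median by choice. The kinds of transcript among the 250 were not counted here, and no link between transcripts is drawn. The 6 points of each pattern share the same arrays and scaling.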

How the data were processed

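Cy3-labelled cDNA was made from TRIzol-extracted RNA of 6 samples, 1 per treatment, per the labels' protocols. The labels describe a NimbleGen array and an Axon scanner, while the files have the columns of 1-colour Agilent output. This conflict remains. Deposited intensity values are processed signals per spot, and the deposited flags (other values, 0 or 1) mark outliers and spots well above background, per the file headers. A table of log2 values was deposited too, made with RMA per the submitters' processing notes, which give no version here. Its columns matched the quantile-normalized scanner values (largest median absolute difference 0.000624), so their scale and direction are known and genes were not centred. Column medians were between 5.07 and 5.08.

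Control spots and feature outliers were left out, repeat spots were averaged, and 60596 of 60639 probes were quantile normalized in limma 3.58.1 (R 4.3.3). Every member reading is named. The 2 most like named probes were taken for each reading well above background on all arrays. Other settings tried were the deposited log2 table, loess (cyclic, span 0.7, 3 iterations), scaling to the 75th percentile in 2 forms, other floors, thresholds and controls, and outlier spots kept. Detection by the 95th percentile of control spots or by the positive and significant flag, other sets of arrays and the median of LPS, IL1b and TNFa as control were chosen after seeing the data. The rule for the members uses names alone, but the members and lists were chosen with earlier results of these data known.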

Additional observations from a re-analysis of the deposited data

How the results depend on the processing

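Counts of member readings at least 2-fold off PBS (3 with LPS, IL1b and TNFa, 4 with IL6 and TGFb) stayed within 1.5 times under the series table, cyclic loess, both percentile scalings, the 3-fold threshold, outlier spots kept and normalization of fewer arrays. With no floor the count was 5 with LPS, beside 13.9% of all probes higher and 7.91% lower. It was 5 with TNFa, beside 15.4% and 9.33%. With both arrays well above background it was 1 with each of the 5 stimuli, the lower one. At 1.5-fold it was 5 with LPS, beside 13.7% of all probes higher and 14.8% lower. It was 6 with IL1b, beside 14.9% and 17.4%, and 7 with TNFa, beside 14.7% and 16.8%. Taking the median of the remaining 5 as control gave 1 with LPS, and 0 higher calls with LPS, IL1b and TNFa. Detection changed with its rule. The 99th percentile of negative control spots gave 4 readings with LPS in place of 7 and 5 with IL6 in place of 11, the 95th gave 7 with PBS in place of 4, and the positive and significant flag gave 10 with PBS and 10 with TNFa. No share over all probes was taken for these rules. Of 127 alternative values of 17 called differences, 111 kept the call, 10 lost it and 6 changed sign. Of 202 alternative values of differences that were not called, 18 gained a call. The 111 include values from the series table and from outlier spots kept, which hold nearly the same values as the main setting. Each of these settings left the call of all 44 differences, called or not, as it was, and could hardly have changed it. Against the median of the remaining 5, uc.160- changed sign with LPS (-0.029) and TNFa (-0.36). The other sign changes were of uc.63-, at -0.60 with IL6 and -0.85 with TGFb against that median, and at -0.89 and -1.14 against the median of LPS, IL1b and TNFa. Both alternatives leave PBS out or give it less weight, so neither can show a rise shared by all stimuli. Background correction by normexp was planned and could not be run. It needs separate spot and background signals, and the intensity values at hand were processed signals alone. The number of arrays, 1 per group, limits the precision of all values. Signals near the negative control spots limit the values of uc.73+, uc.160-, UC.338+, UC.338-, UC.339+, UC.339-, UC.416+ and UC.475+. They also limit the PBS value of uc.63-, on which all its differences from PBS rest.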
